A study of Mus musculus with 8 samples.

Results

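The collagen genes of the mouse heart were followed here across 8 whole-heart RNA libraries. The family was taken as every protein-coding row of the deposited count table whose symbol has the form Col, a number, the letter a and a number, and this gave 44 of the 56748 genes listed, or 44 of 21970 protein-coding genes. Collagens are extracellular proteins built from chains that wind around each other into a long helix. Fibrillar collagens such as types I and III form the load-bearing fibres of the cardiac interstitium, type IV collagen forms the sheet of the basement membrane around cardiomyocytes and capillaries, type VI forms fine filaments between these layers, and smaller classes decorate the fibres or span cell membranes. In the heart most of the fibrillar chains are made by fibroblasts, and their build-up under pressure overload is known as fibrosis.

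The hearts came from mice of 3 to 4 months, written as strain C56BL in the labels, that had carried a constriction of the transverse aorta for 56 days, and animals were kept where the right-to-left carotid flow ratio lay between 3 and 25. All 8 mice were banded, so no library shows an unloaded heart. The 4 CRE hearts expressed Cre from the promoter of alpha myosin heavy chain (aMHC), a cardiomyocyte gene, and the 4 CS7KO hearts carried the same Cre together with a Smad7 gene that it excises. Cre is present in both groups, and the excision is limited to cardiomyocytes, whereas the RNA came from all cells of the heart. Smad7 is an inhibitor of signalling by the TGF-beta receptor, a pathway known to drive collagen production. The labels give 2 male and 2 female hearts in each group, CRE 1, CRE 2, CS7KO 1 and CS7KO 2 being labelled male.

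The libraries held 16476420 to 40181492 counts. All 8 contained reads of Y-linked genes (178 to 896 of Uty and 861 to 4713 of Ddx3y) and at most 36 reads of Xist, so the 4 libraries labelled female go against that label, and they are called "labelled female" throughout. Smad7 stood at 17.6, 25.5, 25.2 and 45.4 CPM (read counts scaled to library size) for CRE 1, 2, 3 and 5, against 19.8, 13.3, 27.8 and 12.3 for CS7KO 1 to 4. The groups overlapped, and the labels do not give which part of the gene is deleted. The summed level of 10 cardiomyocyte markers was 21116 to 44484 CPM in CRE and 39543 to 47467 CPM in CS7KO. Mitochondrial genes took 69.8% of the counts in CRE 5, 41.1% in CRE 3 and 15.04 to 24.9% in the other 6. In CRE 1 low counts were nearly missing, with 537 genes at 1 to 9 counts against 5848 to 19697 elsewhere. Among the collagens, 15 were listed at 0 in CRE 1, the smallest count above 0 there was 16, and the largest count any of these 15 reached in another library was 153. Outside CRE 1, a count of 0 allows up to 3 counts, or 0.0644 to 0.363 CPM depending on the library. In CRE 1, where low counts are nearly missing, a 0 may stand for more than that, and no limit is given.

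Where collagen genes sit and what precedes them bears on how they can be read. Col4a1 and Col4a2, the chains of the most widespread type IV collagen, are read away from each other on chromosome 8, and in the deposited table their transcribed ends overlap by 22 bases. Col4a3 and Col4a4 lie 71 bases apart and Col4a5 and Col4a6 lie 1308 bases apart in the same arrangement. Promoter windows from RefSeq, running from 250 bases before to 50 bases after each start in GRCm38.p6, were found for 35 of the 44 genes. Shown here are the window shared by the most abundant pair, and those of Col5a3 and Col6a3, the genes with the smallest p-values of the family. The Col4a2 window is chr8:11312555-11312854 on the plus strand, and its capitals mark the 78 bases it shares with the Col4a1 window, chr8:11312777-11313076 on the minus strand. The Col5a3 window is chr9:20815018-20815317 and the Col6a3 window chr1:90843922-90844221, both on the minus strand, and their capitals mark matches, on either strand, to 3 motifs: GGGCGG, which is the core of the box bound by Sp1; CCAAT, which is bound by NF-Y; and CAGAC, which is the core of the Smad-binding element.
Col4a2: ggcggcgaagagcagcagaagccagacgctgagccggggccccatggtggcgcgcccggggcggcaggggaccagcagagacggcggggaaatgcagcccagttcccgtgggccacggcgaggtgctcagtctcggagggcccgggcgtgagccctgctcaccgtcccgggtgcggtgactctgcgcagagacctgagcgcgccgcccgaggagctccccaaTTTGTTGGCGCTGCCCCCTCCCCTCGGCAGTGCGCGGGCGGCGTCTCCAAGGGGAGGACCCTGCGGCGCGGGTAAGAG
Col5a3: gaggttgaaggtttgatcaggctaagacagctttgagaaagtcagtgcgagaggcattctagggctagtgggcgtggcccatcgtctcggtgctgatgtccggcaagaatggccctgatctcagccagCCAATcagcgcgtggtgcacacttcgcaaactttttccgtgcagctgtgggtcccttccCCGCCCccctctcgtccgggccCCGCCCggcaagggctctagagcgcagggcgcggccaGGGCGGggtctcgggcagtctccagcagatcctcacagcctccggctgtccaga
Col6a3: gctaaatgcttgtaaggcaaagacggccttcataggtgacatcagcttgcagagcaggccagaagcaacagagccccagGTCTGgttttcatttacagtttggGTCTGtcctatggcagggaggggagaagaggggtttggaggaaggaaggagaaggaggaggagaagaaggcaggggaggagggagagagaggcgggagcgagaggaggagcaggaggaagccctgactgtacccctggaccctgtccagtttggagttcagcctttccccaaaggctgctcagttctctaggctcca
Col5a3 had 3 matches to GGGCGG, 1 to CCAAT and 0 to CAGAC, whereas Col6a3 had 0, 0 and 2. Over the 38 windows of the family, GGGCGG was found in 60.5%, CCAAT in 34.2% and CAGAC in 52.6%, against 35.7%, 37.4% and 49.6% of the 32851 windows of all genes. These letters are matches in a window and were not tested as binding sites.

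Levels were compared between genes as CPM per kb of the deposited gene length. By mean level per kb the basement membrane pair led the family in these hearts, an order that depends on the deposited lengths. Without division by length, Col4a1 averaged 486.1 CPM, Col3a1 397.4 CPM and Col4a2 376.6 CPM. Averaged over the 8 libraries, Col4a1 stood at 65.1 CPM per kb and Col4a2 at 56.9, followed by Col3a1 at 40.5 and Col1a1 at 30.4. Next came Col6a1 at 22.8, Col1a2 at 19.8, Col8a1 at 17.6, Col15a1 at 11.9, Col6a2 at 10.7, Col5a2 at 10.02, Col5a1 at 7.00 and Col4a5 at 5.92 CPM per kb. No neighbours in this order had ranges that kept apart over the 8 libraries. Col4a1 exceeded Col4a2 in 5 of 8 libraries and Col4a2 exceeded Col3a1 in 7 of 8, while Col5a2 exceeded Col5a1 in all 8. The 5 genes of types I, III and IV (Col1a1, Col1a2, Col3a1, Col4a1 and Col4a2) took 63.5 to 73.1% of all collagen counts. At the other end, 17 genes had 0 counts in at least 1 library, 10 of them in CRE 1 and nowhere else. Col2a1, Col10a1 and Col9a1, which are some of the chains of cartilage collagens, and Col19a1 and Col25a1 failed the filter on low counts. This left 39 of 44 for testing among 16002 genes.

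**Figure D1:**
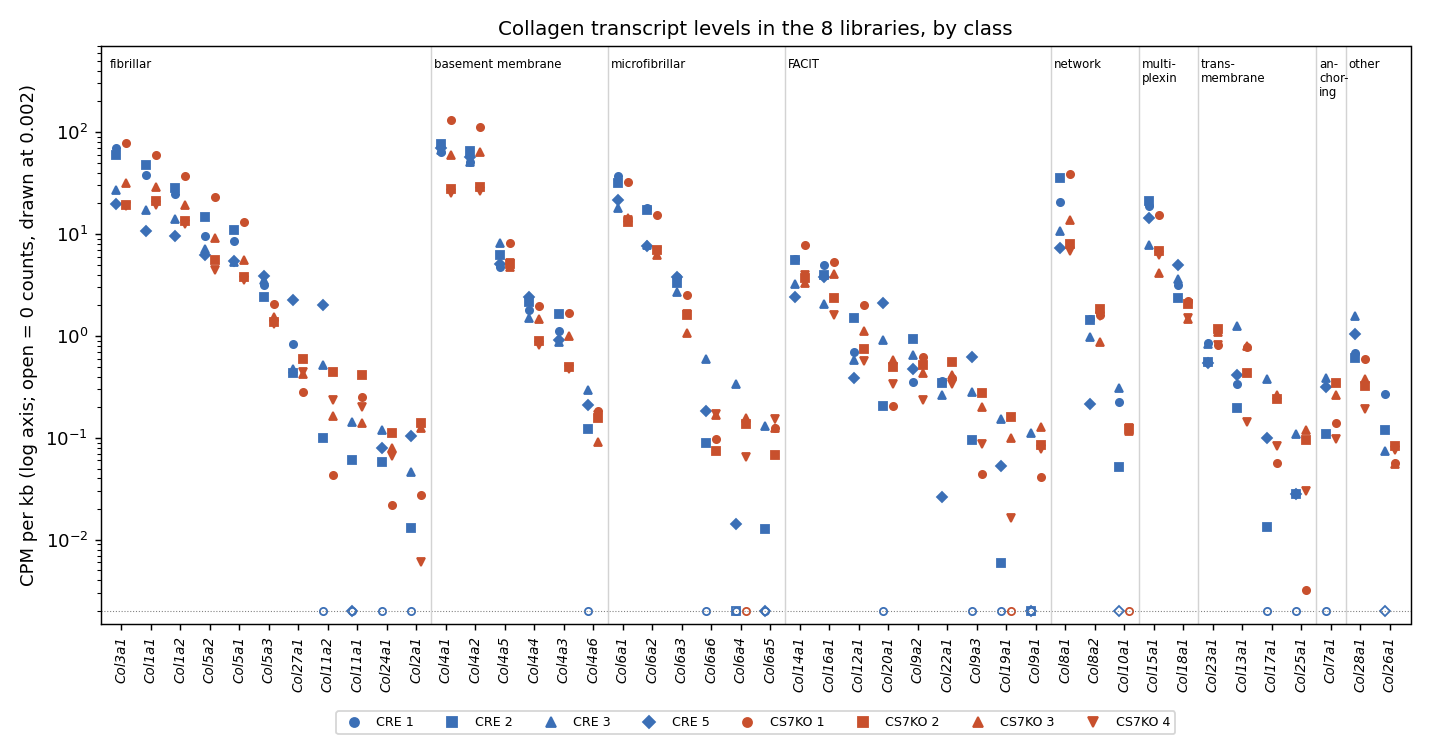
Level of each collagen gene in each library as CPM per kb on a log axis, with the genes grouped by class and ordered by mean level; blue symbols are CRE, red symbols are CS7KO, and open symbols on the dotted line are counts of 0. Col4a1 and Col4a2 stand highest at 65.1 and 56.9 CPM per kb on average, and most of the open symbols are the circles of CRE 1, where 15 genes were listed at 0.

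All collagens together made up 0.184 to 0.622% of the counts outside the mitochondrial genome. Their summed level was 3085, 3441, 2053 and 1992 CPM for CRE 1, 2, 3 and 5, against 4676, 1404, 2194 and 1286 CPM for CS7KO 1 to 4. The highest and the lowest sums of the series were both CS7KO hearts. The group means were 2643 ± 731 CPM in CRE and 2390 ± 1576 CPM in CS7KO (SD, n = 4), and they differed by less than either SD. The mean difference on the log2 scale was -0.31, and it was -0.69 without CS7KO 1. Fibrillar chains took 38.2% ± 8.61 of the collagen counts in CRE and 42.4% ± 1.20 in CS7KO (SD, n = 4), and type IV chains took 38.2% ± 9.81 and 36.3% ± 5.11. Within CRE the fibrillar share was 46.7% and 43.7% in CRE 1 and 2 but 34.3% and 28.0% in CRE 3 and 5, while the 4 CS7KO hearts lay between 40.8 and 43.4%. The summed level of 9 activated-fibroblast markers was 1806, 1969, 844 and 644 CPM in the CRE hearts and 3080, 1060, 1958 and 874 CPM in the CS7KO hearts, and CS7KO 1 was the highest for these as for the collagens. None of the 9 was at 0 in every library, and the part that the number or state of fibroblasts has in the collagen sums was not tested. In RNA from whole tissue, fewer cells of a type and less RNA per cell cannot be told apart.

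**Figure D2:**
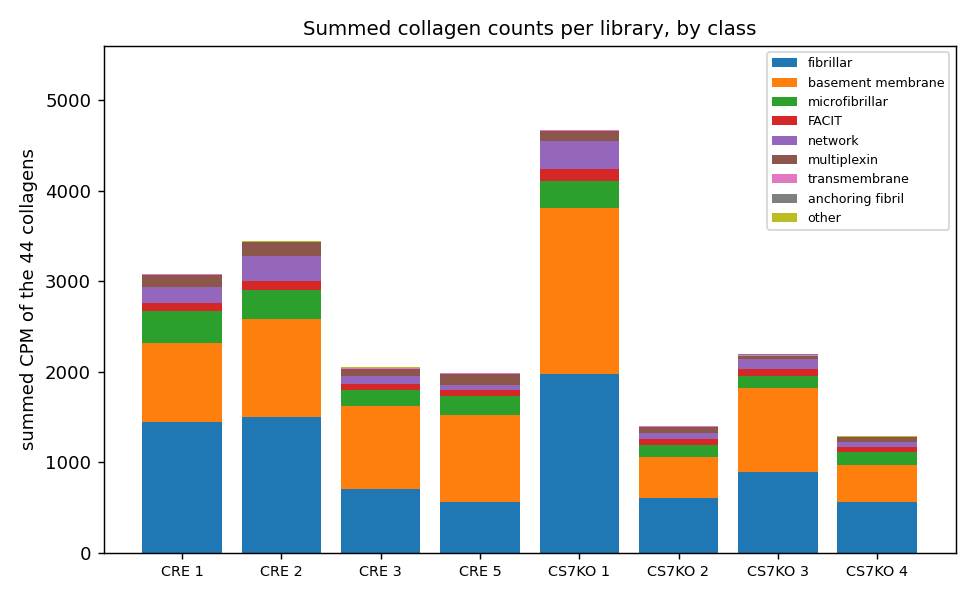
Summed CPM of the 44 collagens in each library, with bars stacked by class from 0. CS7KO 1 stands highest at 4676 CPM and CS7KO 4 lowest at 1286 CPM, and fibrillar and basement membrane chains make up most of every bar.

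The comparison of CS7KO with CRE hearts asks whether loss of Smad7 from cardiomyocytes changes the collagen message of the pressure-overloaded heart. No collagen passed an adjusted p of 0.05 in edgeR's quasi-likelihood test with labelled sex as a term, where 0.0375% of all genes did. DESeq2 called 2 of the 39, Col5a3 and Col6a3, both lower in CS7KO, a share of 5.13% against 3.14% of all genes (1.55% higher and 1.59% lower), and limma-voom called 0, against 0.0312% of all genes. DESeq2 gave no adjusted p for Col4a6, Col6a4, Col6a5, Col6a6, Col7a1, Col9a2, Col9a3, Col11a1, Col17a1, Col24a1 and Col26a1, all of low counts, and could not call them. Both DESeq2 shares count such genes among those tested. At an unadjusted p under 0.05 in edgeR, 5 of 39 (12.8%) differed, against 12.6% of all genes, so the number of such collagens was near the background. All 5 were lower in CS7KO, the share of all genes being 6.52% on that side and 6.12% on the other: Col5a3, Col6a3, Col18a1, Col15a1 and Col28a1. The 4 CRE and 4 CS7KO values did not overlap for 4 of 39 collagens (10.3%), against 10.3% of all genes, and for each of the 4 CS7KO was lower, which held for 4.11% of all genes, 6.24% having CS7KO higher. By sign alone 22 of the 39 (56.4%) were lower, against 48.1% of all genes, and 17 were higher, and the median log2 fold change was -0.03 against 0.03 over all tested genes. Leaving out single libraries gave 2 to 8 collagens at an unadjusted p under 0.05, the fewest without CS7KO 3 (5.13% against 6.78% of all genes). The most were found without CRE 3 (20.5% against 9.91%), whose 8 included 3 that were higher (Col11a1, Col6a4 and Col6a5), and without CS7KO 1 there were 7 (16.7% against 9.39%). Without CRE 5 the number was 3 (7.14% against 7.32% of all genes).

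**Figure D3:**
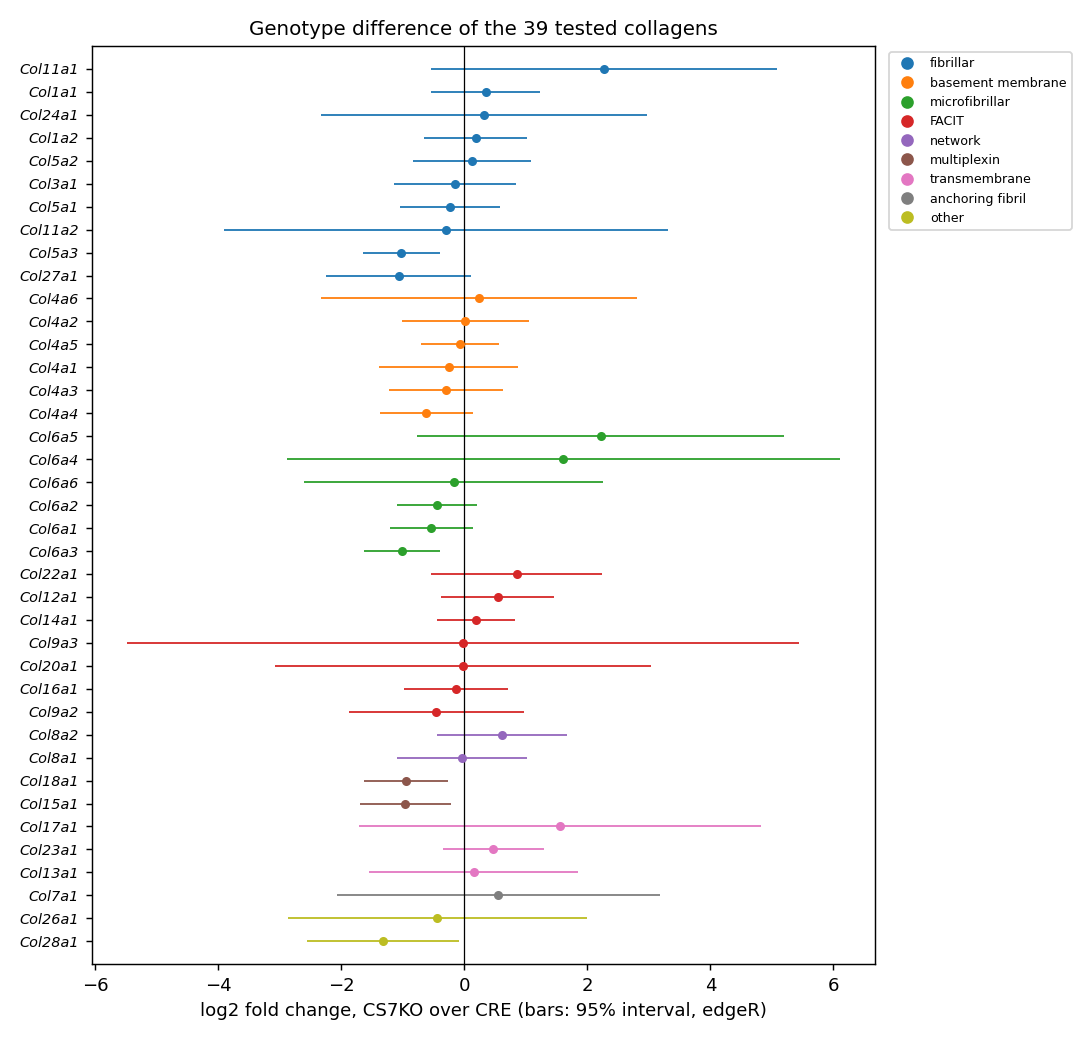
Log2 fold change of CS7KO over CRE for the 39 tested collagens, with points at the edgeR estimate, bars for the 95% interval and colours for the class. The intervals of Col5a3, Col6a3, Col18a1, Col15a1 and Col28a1 lie below 0 before adjustment for the number of genes tested, and the widest intervals belong to genes of low counts such as Col9a3 and Col6a4.

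The fibrillar class holds the chains that assemble into banded fibres, and 10 of its 11 genes were tested. None passed in edgeR, and the 5 above and 5 below 0 had a median log2 fold change of -0.01. Col1a1, the alpha1 chain of type I collagen and the main component of scar, measured 250.2, 314, 114 and 70.0 CPM in CRE 1, 2, 3 and 5, against 389, 139.7, 191 and 127 CPM in CS7KO hearts 1 to 4. The groups overlapped over most of their range, CRE 5 being lowest and CS7KO 1 highest. The log2 fold change of Col1a1 was 0.35 (SE 0.40, 95% interval -0.54 to 1.23, adjusted p = 0.775). Its partner Col1a2 measured 308, 349.6, 174 and 117 CPM in the CRE hearts, against 463, 165, 239 and 155 CPM in the CS7KO hearts, with a log2 fold change of 0.18 (SE 0.37). Col3a1, the chain of type III collagen that forms mixed fibres with type I, measured 686, 582, 265 and 193 CPM in the CRE hearts, against 770.1, 189, 310.1 and 183 CPM in the CS7KO hearts, with a log2 fold change of -0.15 (SE 0.44). For these 3 chains CRE 1, CRE 2 and CS7KO 1 were the highest libraries. The 95% interval ran from -1.13 to 0.84 for Col3a1 and from -0.65 to 1.02 for Col1a2.

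Type V collagen sits in the core of type I fibrils and sets their diameter, and its 3 chains differed in how they compared between the genotypes. Col5a3 measured 21.4, 16.3, 24.0 and 26.6 CPM in CRE 1, 2, 3 and 5, against 14.2, 9.40, 10.6 and 9.01 CPM in CS7KO hearts 1 to 4. Every CS7KO heart lay below every CRE heart. The group means were 22.1 ± 4.40 and 10.8 ± 2.35 CPM (SD, n = 4), and the log2 fold change was -1.02 (SE 0.28, adjusted p = 0.291 in edgeR and 0.0432 in DESeq2). The chains that make up the common form of type V collagen overlapped between the groups. Col5a1 measured 73.3, 92.8, 45.6 and 46.7 CPM in the CRE hearts, against 111, 32.2, 47.4 and 30.3 CPM in the CS7KO hearts, a log2 fold change of -0.23 (SE 0.36). Col5a2 measured 91.8, 142, 68.8 and 59.8 CPM in the CRE hearts, against 223, 52.9, 87.5 and 42.9 CPM in the CS7KO hearts, a log2 fold change of 0.13 (SE 0.43). Both were highest in CS7KO 1, where Col5a3 was also the highest of its group, and the difference between Col5a3 and the other chains was not tested. Col27a1, a minor fibrillar chain known from cartilage, reached 29.0 CPM in CRE 5 against 10.9, 5.61 and 6.13 CPM in the other CRE hearts, and 3.71, 7.82, 5.53 and 5.82 CPM in CS7KO. Its log2 fold change of -1.07 (SE 0.53, adjusted p = 0.434) shrank to -0.34 without CRE 5. Col11a1, a chain of the cartilage fibril, had the largest log2 fold change of the family at 2.27, but with an SE of 1.26. Its counts were 0, 19, 52 and 0 in CRE and 77, 124, 83 and 46 in CS7KO, so it overlapped. The first of these 0 counts is that of CRE 1, where low counts are nearly missing. DESeq2 gave Col11a1 no adjusted p over all hearts, and without CRE 3 it called the gene (1 collagen of 39, against 1.08% of all genes).

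**Figure D4:**
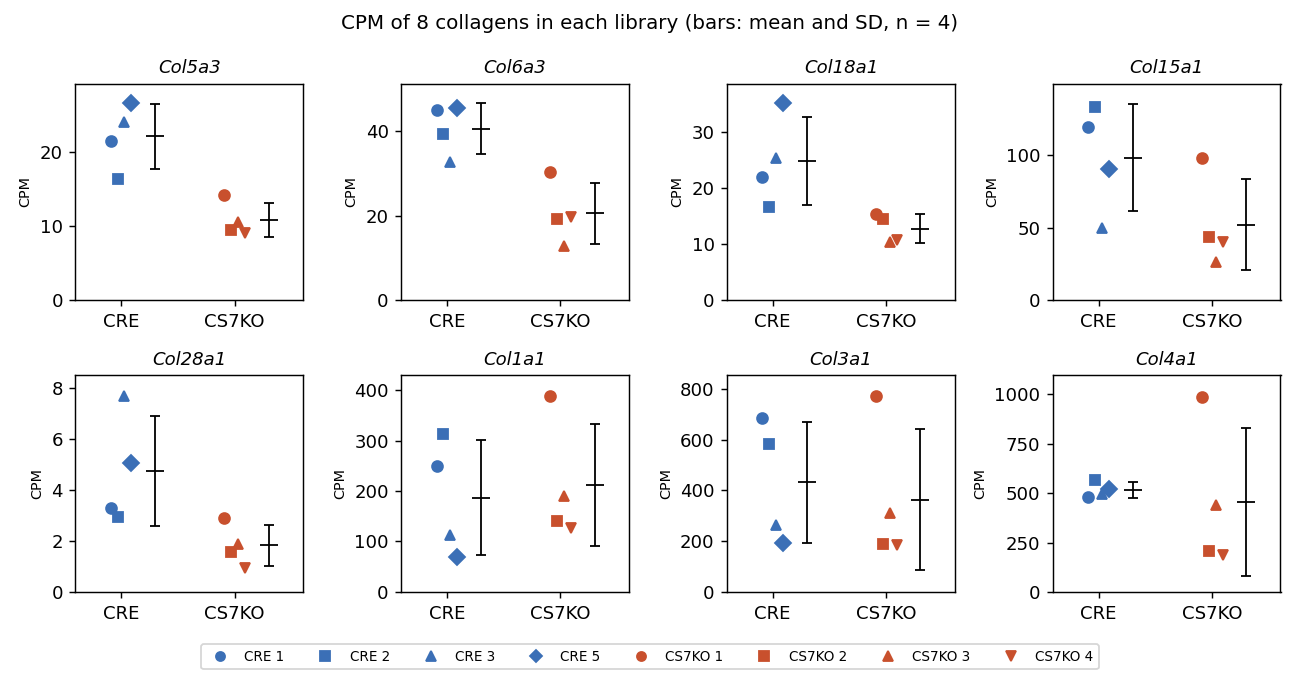
CPM of 8 collagens in each library, with symbols for libraries and bars for the mean and SD of each group of 4. Col5a3, Col6a3, Col18a1 and Col28a1 are lower in all 4 CS7KO hearts than in any CRE heart, whereas Col15a1, Col1a1, Col3a1 and Col4a1 overlap, with CS7KO 1 the highest of its group in every panel.

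All 6 type IV chains were tested, 2 above and 4 below 0, with a median log2 fold change of -0.16 and none passing in edgeR or DESeq2. Col4a1 was even across the CRE hearts, at 480.4, 568, 496 and 520.3 CPM, and scattered across the CS7KO hearts, at 989, 205, 442 and 189 CPM. The SD of the group was 38.3 CPM in CRE and 373 CPM in CS7KO around means of 516 and 456 CPM, and the log2 fold change was -0.25 (SE 0.51, adjusted p = 0.885). Col4a2 followed with 336, 428, 337 and 376 CPM in the CRE hearts, against 747, 192, 422 and 174 CPM in the CS7KO hearts, a log2 fold change of 0.02 (SE 0.46). CS7KO 1 was the highest of all 8 libraries and CS7KO 4 the lowest for both chains. The ratio of Col4a1 to Col4a2 per kb was 1.27, 1.18, 1.30 and 1.23 for CRE 1, 2, 3 and 5, against 1.17, 0.948, 0.928 and 0.959 for CS7KO 1 to 4. Of 13 ratios between chains that were looked at after the counts were seen, this was the only one whose groups did not overlap, with CS7KO 1 close to CRE 2, and it is given as a description with no test. Whether strand was used to assign reads in the 22 shared bases is not stated.

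The other type IV chains are known for the basement membranes of the kidney glomerulus and of smooth muscle. Col4a5 was the most abundant of them, at 31.7, 42.0, 54.4 and 34.2 CPM in the CRE hearts, against 54.6, 34.3, 32.0 and 34.8 CPM in the CS7KO hearts, and the groups overlapped. Col4a4 measured 19.0, 22.7, 15.9 and 25.8 CPM in the CRE hearts, against 20.8, 9.48, 15.7 and 8.67 CPM in the CS7KO hearts, with a log2 fold change of -0.61 (SE 0.34, adjusted p = 0.485). Its neighbour Col4a3 measured 11.04, 16.3, 8.64 and 9.19 CPM in the CRE hearts, against 16.9, 4.91, 9.91 and 4.76 CPM in the CS7KO hearts, a log2 fold change of -0.30 (SE 0.42). In CS7KO both were lowest in CS7KO 2 and CS7KO 4. Col4a6 had 0, 24, 66 and 14 counts in the CRE hearts, against 35, 29, 34 and 24 in the CS7KO hearts, and its log2 fold change of 0.24 turned to -0.38 without CRE 1.

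Type VI collagen forms beaded filaments that anchor basement membranes to the interstitium. Its 6 genes were all tested, 2 above and 4 below 0, with a median of -0.31. Col6a3 measured 45.0, 39.3, 32.6 and 45.6 CPM in CRE 1, 2, 3 and 5, against 30.3, 19.3, 12.9 and 19.8 CPM in CS7KO hearts 1 to 4. No CS7KO heart reached the lowest CRE heart, the means being 40.6 ± 6.06 and 20.6 ± 7.23 CPM (SD, n = 4). The log2 fold change was -1.01 (SE 0.28, adjusted p = 0.291 in edgeR and 0.0464 in DESeq2). The chains it assembles with, Col6a1 and Col6a2, lay on the same side of 0 but overlapped. Col6a1 measured 161, 138, 79.0 and 95.2 CPM in the CRE hearts, against 143, 57.8, 63.2 and 60.4 CPM in the CS7KO hearts, a log2 fold change of -0.53 (SE 0.30, adjusted p = 0.502). Col6a2 measured 148, 142, 64.4 and 62.9 CPM in the CRE hearts, against 128, 57.5, 51.5 and 57.0 CPM in the CS7KO hearts, a log2 fold change of -0.44 (SE 0.29, adjusted p = 0.571). For both chains CS7KO 2, 3 and 4 were lower than every CRE heart, and CS7KO 1 lay among the CRE hearts. The alpha4, alpha5 and alpha6 chains, which can take the place of the alpha3 chain, were scarce. Col6a6 had 0, 20, 153 and 14 counts in CRE and 21, 16, 72 and 28 in CS7KO, while Col6a5 had 0, 3, 35 and 0 against 28, 15, 55 and 26. The log2 fold change of Col6a5 was 2.22, with an SE of 1.34, and it was 1.61 without the term for labelled sex. The first 0 of Col6a5 is that of CRE 1, where low counts are nearly missing.

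Both DESeq2 calls depended on the hearts and terms in the fit. Without the term for labelled sex, DESeq2 called Col5a3 alone (adjusted p = 0.0307), where it called 2.49% of all genes. With 1 heart left out at a time, DESeq2 called Col5a3 and Col6a3 in 2 of 8 fits. Without CRE 2 it called them with Col18a1, 3 of 43 collagens, where it called 6.93% of all genes, and without CS7KO 1 with Col15a1, 3 of 42 collagens, where it called 1.55%. In edgeR both genes had an unadjusted p under 0.05 in 8 of 8 such fits, with log2 fold changes from -1.22 to -0.89 for Col5a3 and from -1.20 to -0.82 for Col6a3. These fits reuse the hearts in which the 2 genes had the smallest p-values of the family, so the count is no separate support for them. How many of all genes kept such a p in every fit was not counted. DESeq2 called 0 collagens in the 5 fits without CRE 1, CRE 5, CS7KO 2, CS7KO 3 or CS7KO 4, against 3.92%, 0.809%, 3.51%, 0.513% and 0.599% of all genes, and neither of these genes without CRE 3.

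The multiplexins Col15a1 and Col18a1 belong to the outer face of basement membranes around vessels and muscle, and Col18a1 is the source of the fragment endostatin. Both were lower in CS7KO by sign, and neither passed an adjusted threshold over the 8 hearts, while DESeq2 called Col18a1 without CRE 2 and Col15a1 without CS7KO 1. Col18a1 measured 22.0, 16.6, 25.3 and 35.2 CPM in the CRE hearts, against 15.3, 14.5, 10.3 and 10.6 CPM in the CS7KO hearts, with no overlap and a log2 fold change of -0.95 (SE 0.31, adjusted p = 0.295 in edgeR and 0.0957 in DESeq2). The table places the opposite-strand gene Slc19a1 over part of it, at 14.3% of its mean level. Col15a1 measured 119, 134, 50.04 and 90.7 CPM in the CRE hearts, against 98.3, 43.6, 26.6 and 39.9 CPM in the CS7KO hearts, with a log2 fold change of -0.96 (SE 0.33, adjusted p = 0.309). CS7KO 1 overlapped the CRE hearts, and the other 3 lay below all of them. The summed level of the pair was 123 ± 33.4 CPM in CRE and 64.8 ± 33.7 CPM in CS7KO (SD, n = 4).

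Markers of several cell types were compared in the same fit, and edgeR called none of them. All 10 endothelial markers had a log2 fold change below 0, with a median of -0.93, and DESeq2 called 3 of them (30.0%), against 3.14% of all genes. Tek, the angiopoietin receptor, measured 59.0, 78.4, 158 and 140.0 CPM in the CRE hearts, against 57.4, 38.6, 51.3 and 34.9 CPM in the CS7KO hearts (log2 fold change -1.15, SE 0.34, DESeq2 adjusted p = 0.0397). The others were Tie1, a related receptor, at -1.17 (SE 0.37, DESeq2 adjusted p = 0.0471) and Egfl7, a protein secreted by endothelium, at -1.37 (SE 0.43, DESeq2 adjusted p = 0.0373). The marker sum ranged from 1026 to 2626 CPM in CRE and from 577 to 1199 CPM in CS7KO, and it was highest in CRE 3 and CRE 5. Of 10 fibroblast markers 8 were below 0, with a median of -0.54, and DESeq2 called Cd248, or endosialin, at -1.28 (SE 0.33, adjusted p = 0.0293). The activated-fibroblast list was mixed, with 6 of 9 above 0 and a median of 0.46. DESeq2 called Comp, a matrix protein that binds collagen, higher in CS7KO at 1.31 (SE 0.37, adjusted p = 0.0196). At an unadjusted p under 0.05 in edgeR were 4 of the 9, against 12.6% of all genes, and these went both ways. Comp and Thbs4 (1.27, SE 0.52) were higher, and Meox1 (-1.08, SE 0.33) and Fap (-1.07, SE 0.38) were lower, with no overlap for Fap.

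All 10 macrophage markers were below 0, with a median of -0.30 and none called by DESeq2. Of 10 markers of pericytes and smooth muscle 8 were below 0, with a median of -0.30, and the member that DESeq2 called, Des, which encodes the desmin of all muscle cells, was higher at 1.13 (SE 0.43, adjusted p = 0.0244). Of 10 cardiomyocyte markers 8 were above 0, with a median of 0.67. DESeq2 called 3 of these (30.0%) higher in CS7KO: Ryr2, the calcium release channel, at 1.30 (SE 0.42, adjusted p = 0.0232), Nppa, the atrial natriuretic peptide, at 1.597 (SE 0.63, adjusted p = 0.0488), and Myh6, alpha myosin heavy chain, at 0.95 (SE 0.44, adjusted p = 0.0178). Among 5 tested genes of cartilage and bone 4 were below 0, and Sox9, a transcription factor of cartilage, gave -2.10 (SE 0.51, DESeq2 adjusted p = 0.00632). DESeq2 called none of the adipocyte, epicardial, red blood cell, Schwann cell and skeletal muscle markers. Several of these marker calls depended on the term for labelled sex. With that term left out, DESeq2 called 2.49% of all genes and still called Tek, Tie1, Egfl7, Myh6 and Sox9. It no longer called Cd248 (adjusted p = 0.0701), Ryr2 (0.0738), Comp (0.204), Des (0.228) or Nppa (0.299). No marker of the endothelial, fibroblast, macrophage, mural or cardiomyocyte lists was at 0 in every library, and the part that the makeup of the tissue has in the collagen differences was not tested.

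Network-forming type VIII collagen is laid down beneath endothelium and by smooth muscle. Col8a1 was the seventh collagen by level, at 161, 275, 84.0 and 57.0 CPM in the CRE hearts, against 304, 63.0, 107 and 53.7 CPM in the CS7KO hearts, and its log2 fold change was -0.03 (SE 0.47). Col8a2 measured 6.58, 6.46, 4.36 and 0.968 CPM in the CRE hearts, against 7.16, 8.24, 3.90 and 7.11 CPM in the CS7KO hearts, a log2 fold change of 0.61 (SE 0.47, adjusted p = 0.635). For Col8a2 the lowest value was that of CRE 5 (8 counts), and 3 of 4 CS7KO hearts exceeded every CRE heart.

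The FACITs lie on the surface of fibrils, and 7 of 9 were tested, 3 above and 4 below 0, with a median of -0.02. Col12a1, a FACIT of stressed connective tissue, measured 10.6, 22.6, 8.85 and 5.93 CPM in the CRE hearts, against 30.3, 11.3, 16.8 and 8.62 CPM in the CS7KO hearts, a log2 fold change of 0.55 (SE 0.41, adjusted p = 0.624). Col22a1, a collagen of muscle-tendon junctions, measured 3.36, 3.15, 2.44 and 0.242 CPM in the CRE hearts, against 3.54, 5.13, 3.84 and 3.13 CPM in the CS7KO hearts, a log2 fold change of 0.85 (SE 0.62, adjusted p = 0.612). Both overlapped, and for both CRE 5 was the lowest library. Col20a1 had 0, 26, 132 and 89 counts in the CRE hearts, against 25, 60, 140 and 31 in the CS7KO hearts, and an overlapping noncoding gene on its own strand, 9230112E08Rik, stood at 144% of its level.

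Of the remaining genes, the transmembrane collagens Col13a1, Col17a1 and Col23a1 were all above 0 by sign, with a median of 0.47. Col23a1 measured 4.90, 3.15, 4.82 and 3.15 CPM in the CRE hearts, against 4.72, 6.71, 6.22 and 4.64 CPM in the CS7KO hearts, a log2 fold change of 0.47 (SE 0.37, adjusted p = 0.637). Col17a1, a component of the junctions that hold epithelium to its basement membrane, had 0, 2, 64 and 5 counts in the CRE hearts, against 8, 34, 74 and 9 in the CS7KO hearts. Col7a1, the chain of skin anchoring fibrils, had 0, 28, 113 and 27 counts in the CRE hearts, against 34, 84, 125 and 18 in the CS7KO hearts. Its log2 fold change of 0.55 turned to -0.16 without CRE 1. Col28a1, known from peripheral nerve, measured 3.31, 2.95, 7.68 and 5.08 CPM in the CRE hearts, against 2.91, 1.58, 1.87 and 0.951 CPM in the CS7KO hearts. Its groups did not overlap, CS7KO 1 lying just under CRE 2, and the log2 fold change was -1.32 (SE 0.55, adjusted p = 0.367). Of 5 tested Schwann cell markers, 3 were below 0, with a median of -0.22. Col26a1 had 50, 24, 17 and 0 counts in the CRE hearts, against 11, 16, 21 and 11 in the CS7KO hearts.

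**Figure D5:**
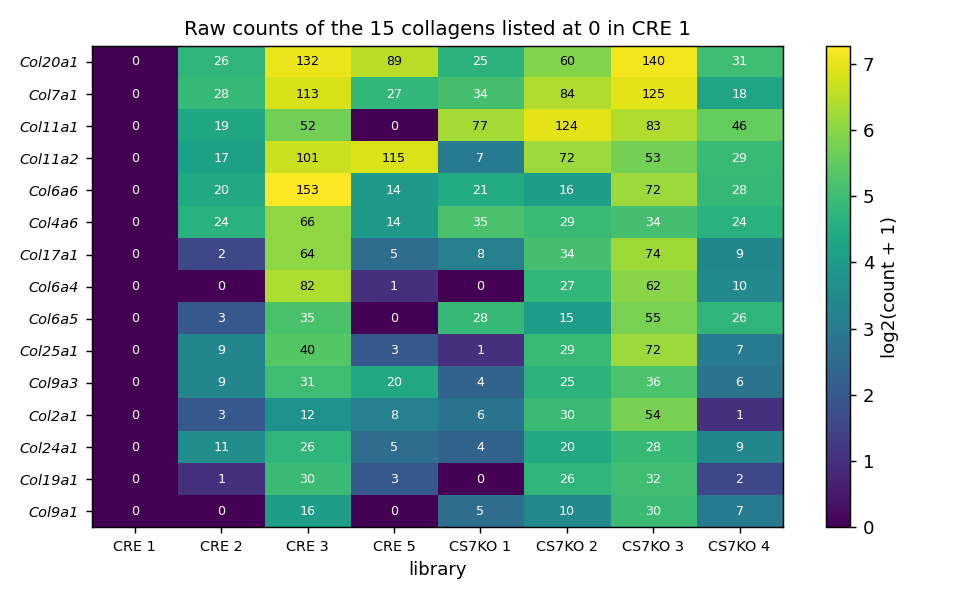
Raw counts of the 15 collagens listed at 0 in CRE 1, by library, with colour for log2(count + 1). Counts reach 153 in other libraries, and 10 of the 15 are at 0 in CRE 1 alone.

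A collagen chain is modified and folded in the cell, trimmed outside it, cross-linked, bound by partners and receptors, and broken down, and the genes of these steps were described beside the collagens. None of the 56 tested in 6 lists passed in edgeR, and 5 (8.93%) were called by DESeq2, against the 3.14% of all genes given above. Of 20 genes of folding and modification, 13 were above and 7 below 0, with a median of 0.14. Serpinh1, the chaperone known as Hsp47 that binds procollagen in the endoplasmic reticulum, measured 299, 199, 131 and 171 CPM in the CRE hearts, against 82.3, 108, 53.9 and 106 CPM in the CS7KO hearts. Its groups did not overlap, and the log2 fold change was -1.15 (SE 0.32, adjusted p = 0.291 in edgeR and 0.0230 in DESeq2). Colgalt2, which adds galactose to hydroxylysine, was below 0 at -1.36 (SE 0.51, adjusted p = 0.332).

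Of 7 tested genes of propeptide cleavage, 4 were above 0. Bmp1, the protease that removes the C-terminal propeptide of fibrillar collagens, measured 62.6, 55.7, 64.9 and 211 CPM in the CRE hearts, against 48.6, 36.6, 45.4 and 34.8 CPM in the CS7KO hearts, a log2 fold change of -1.13 (SE 0.42, adjusted p = 0.335). Pcolce, its enhancer, gave -0.60 (SE 0.35). In cross-linking 4 of 6 were above 0. Tgm2, a transglutaminase, measured 211, 215, 215 and 109 CPM in the CRE hearts, against 594, 310, 343 and 337 CPM in the CS7KO hearts. Every CS7KO heart exceeded every CRE heart, with a log2 fold change of 1.08 (SE 0.33, adjusted p = 0.295 in edgeR and 0.0247 in DESeq2). Loxl3, a lysyl oxidase, gave 0.54 (SE 0.26, adjusted p = 0.429).

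Of 8 fibril partners, 6 were below 0, with a median of -0.45. Fmod, the small proteoglycan fibromodulin, went the other way, at 15.9, 20.7, 7.72 and 3.51 CPM in the CRE hearts, against 24.8, 31.1, 25.2 and 30.4 CPM in the CS7KO hearts, without overlap (log2 fold change 1.43, SE 0.41, DESeq2 adjusted p = 0.0294). Dpt, dermatopontin, gave -1.05 (SE 0.33, edgeR adjusted p = 0.295). Of 9 receptor genes 6 were below 0. Itga1, the collagen-binding integrin chain, measured 41.5, 75.9, 96.5 and 133 CPM in the CRE hearts, against 40.4, 34.0, 32.9 and 31.7 CPM in the CS7KO hearts (log2 fold change -1.24, SE 0.33, DESeq2 adjusted p = 0.0238). Ddr1, a receptor tyrosine kinase for collagen, gave 0.89 (SE 0.26, DESeq2 adjusted p = 0.0496), and its groups did not overlap either. Among 6 collagenases no gene passed, and Mmp2 gave 1.02 (SE 0.62) and Ctsk 0.35 (SE 0.37). With the term for labelled sex left out, DESeq2 still called Serpinh1, Tgm2 and Itga1. It no longer called Ddr1 (adjusted p = 0.110) or Fmod (0.147).

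The labelled sexes were compared in the same fit, and since every library holds Y-linked reads this compares 4 hearts under one label with 4 under the other. No collagen passed in edgeR or DESeq2, where 0% of all genes did, and the smallest adjusted p was 0.823. At an unadjusted p under 0.05, 11 of 39 collagens (28.2%) differed, against 2.67% of all genes, and all 11 were lower in the labelled female hearts. They were Col1a1, Col1a2, Col3a1, Col5a1, Col5a2, Col6a1, Col6a2, Col8a1, Col12a1, Col14a1 and Col15a1. Col1a1 gave a log2 difference of -1.17 (SE 0.40) and Col8a1 one of -1.41 (SE 0.48), labelled female over labelled male. The median over the 39 was -0.36 against 0.09 over all genes. Without CS7KO 1, the heart of the highest collagen sum, 1 of 42 collagens was at an unadjusted p under 0.05, Col6a2 (2.38% against 4.56% of all genes). There were 4 without CRE 3 (10.3% against 1.09%), 6 without CRE 2 (14.0% against 0.689%) and 5 without CS7KO 4 (11.6% against 6.39%). Fibroblast markers lay on the same side: 7 of 9 activated-fibroblast markers were lower in the labelled female hearts, with a median of -0.95, and 8 of 10 fibroblast markers, with a median of -0.20. At an unadjusted p under 0.05 were Postn, or periostin, at -1.32 (SE 0.56), Comp at -1.05 (SE 0.36), Ltbp2 at -0.95 (SE 0.39), Cd248 at -0.86 (SE 0.33) and Pi16 at -0.88 (SE 0.39). All 10 macrophage markers (median -0.53) and all 10 cardiomyocyte markers (median -0.30) were also lower by sign, and all 10 endothelial markers were higher (median 0.50), with none of the 3 lists holding a gene at an unadjusted p under 0.05. The part of these cell types in the difference was not tested. CRE 3 and CRE 5, with 41.1% and 69.8% mitochondrial counts, are both labelled female, and their part in the difference was not tested.

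A difference of the genotype effect between the labelled sexes passed for 0 of 39 collagens in edgeR, against 0% of all genes, and for 0 in DESeq2, against 0.275%. At an unadjusted p under 0.05 in edgeR there were 2, Col11a2 and Col18a1 (5.13% against 7.08% of all genes). In this comparison DESeq2 gave no adjusted p for many of the 39, Col11a2 and Col18a1 among them, and could not call those. Without CRE 2, edgeR called 5 collagens, Col4a6, Col6a6, Col7a1, Col11a2 and Col20a1, and 8.55% of all genes. In that fit CRE 1 is the only labelled male control, and all 5 genes were listed at 0 there.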

How the data were processed

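The deposited file holds unnormalized read counts of each gene in 8 libraries of polyadenylated RNA from whole hearts, extracted with Trizol per the labels' protocols, with gene identifiers, lengths and coordinates. The series text calls the 4 hearts of a genotype independent. In the submitters' processing notes, the builds are mm10 and GRCm38.p6, and the tools are HTSeq 0.6.1, TopHat2 2.0, Cufflinks 2.1.1 and CASAVA, with no role stated for any. The table's coordinates equal those of a GRCm38 annotation for 3 of 44 collagens, so its build is unsettled and gene positions are not printed; promoter windows come from RefSeq. No source used here gives the use of strand in counting.

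The tests used edgeR 4.0.16 (R 4.3.3): filterByExpr on genotype (minimum count 10, minimum total 15), TMM scaling, a robust quasi-likelihood fit of genotype and labelled sex over all genes, and Benjamini-Hochberg adjustment over all genes, passing under 0.05. DESeq2 1.42.0 and limma-voom (limma 3.58.1) were alternatives. Fold changes are CS7KO over CRE, and CPM uses TMM-scaled library sizes. The fits were tested on simulated data with large changes in well-counted genes and with scatter capped. That test does not cover changes of the size seen here. No library duplicated another of its group. The chi-square between 2 libraries was 246.4 to 1115 times its degrees of freedom within CRE, and 11.0 to 95.7 times within CS7KO. Libraries of different groups were not compared in this way. Zero-count limits (3 counts) cover counting error only and are not given for CRE 1.

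The collagens and gene lists were chosen with earlier results of these data known. Values by library are given for the 12 collagens highest per kb, the 2 of smallest p in each class, those called by edgeR or DESeq2, and those at 0 in 1 library with at least 10 counts in the others; of the lists of collagen handling, genes called and the 2 of smallest p are described. The rule also covers the 2 of smallest p in each list of cell type markers. There, for genotype, the genes called by DESeq2 are described, with Thbs4, Meox1 and Fap besides. Col11a1 and Col6a5 were added after their values were seen.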

Additional observations from a re-analysis of the deposited data

Results flagged for a closer look

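In 126 groups of 4 hearts looked at (29 collagens, 21 class sums or shares and 13 ratios, in each genotype), 6 had a heart far from its group, and chance flags about 1 group in 20. CS7KO 1 was the heart concerned in 5 of them. Its Col4a5 level was 54.6 CPM against 32.05 to 34.81 in the other CS7KO hearts, its Col6a1 level 143.3 CPM against 57.8 to 63.19, and its Col6a2 level 127.6 CPM against 51.5 to 57.45. Its summed microfibrillar level was 303.4 CPM against 131.6 to 140.7. Its ratio of Col4a1 to Col4a2 per kb was 1.174 against 0.928 to 0.959. In CRE 5 the FACIT share of collagen counts was 3.188% against 2.803 to 2.868% in the other CRE hearts. Over all tested genes, the hearts that stood apart were controls. On the first principal axis of variation (51.2% of the variance), CRE 1 lay at -214.9 and the other hearts between 10.8 and 53.1. On the second (27.3%), CRE 5 lay at 146.7 and the other hearts between -44.5 and 25.9. What sets CS7KO 1, CRE 1 and CRE 5 apart was not tested.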

How the results depend on the processing

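The count of collagens passing in the genotype comparison was 0 under every alternative run in edgeR, leaving out single hearts included. In limma-voom, run on all hearts alone, it was 0. In DESeq2 it was 2 (Col5a3 at -1.002 and Col6a3 at -0.99 on the log2 scale). Across DESeq2 fits with 1 heart left out, an alternative chosen after seeing the data, the count ranged from 0 to 3. With hearts left out, collagens at an unadjusted p under 0.05 numbered 2 to 8 for genotype (6.78 to 15.2% of all genes) and 1 to 15 for labelled sex (0.63 to 6.39% of all genes; the 15 without CS7KO 2 are 38.5% against 6.15%), and those passing for the difference between labelled sexes 0 to 5; the cause was not tested. The median log2 fold change ran from -0.15 to 0.28 with hearts left out and the summed difference from -0.69 to -0.074, within the spread between replicates. The replicate numbers were not taken as pairs. The correlations of same-numbered deviations were 0.04, -0.09 and 0.35 for numbers 1 to 3, too few to settle whether the hearts were paired. Of CRE 1, CRE 2 and CRE 3, CRE 3 alone correlated best with its same-numbered heart. A replicate block over numbers 1 to 3 gave 0 calls and a median of 0.11 (0.16 over all genes). Without a filter the median of all genes moved to 0.57, and 19 of 44 collagens were lower in CS7KO. Of 39, 20 were lower in DESeq2 and with upper quartile scaling, 22 with RLE scaling, and 25 in limma-voom (median -0.25) and without a sex term; with hearts left out it was 15 of 43 without CS7KO 4 and 25 of 42 without CRE 1 or CS7KO 1.

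Of 607 alternative values for 29 collagens, 554 kept direction and side of the threshold, 2 became called and 51 changed sign. Without CRE 1 and CRE 5 together, Col7a1 came to -0.064, Col4a6 to -0.37 and Col27a1 to 0.0047. Without CRE 3 and CRE 5, Col4a1 came to 0.16, Col4a5 to 0.23, Col20a1 to 1.68, Col1a2 to -0.098, Col1a1 to -0.13 and Col6a6 to 0.88. Without CRE 1 and a sex term, chosen after seeing the data, Col7a1 came to -0.25, Col4a6 to -0.39 and Col3a1 to 0.089. In limma-voom Col4a2 came to -0.25 and Col5a2 to -0.088, and without a sex term Col4a6 came to -0.060. Without a filter Col4a5 came to 0.046, Col20a1 to 0.032 and Col8a1 to 0.079. With mitochondrial genes removed Col8a1 came to 0.020. Col20a1 came to 0.023 in DESeq2, to 0.015 with upper quartile scaling and to 1.56 with the replicate block, where Col6a6 came to 0.41. With hearts left out in turn, the ranges were -0.16 to 1.21 for Col7a1, -0.94 to 0.039 for Col4a1, -0.54 to 0.28 for Col4a2, -0.28 to 0.15 for Col4a5, -0.38 to 0.72 for Col4a6, -0.79 to 0.67 for Col20a1, -0.56 to 0.18 for Col3a1, -0.094 to 0.46 for Col1a2, -0.42 to 0.40 for Col5a2, -0.67 to 0.033 for Col5a1, -0.73 to 0.50 for Col6a6, -0.52 to 0.31 for Col8a1 and -0.96 to 0.041 for Col26a1. Genes under about 100 counts, and those at 0 in CRE 1, limit what these depths can show.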
